A study of Homo sapiens with 2 samples.

Results

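Kinesins are motor proteins that walk along or take apart microtubules, and centromere proteins, named CENP, build the platform on which a chromosome is joined to the spindle. The genes described here are the protein-coding genes on the array whose symbol begins with KIF and a digit or C, or is CENP with further letters. They number 58 of 11916 protein-coding genes named on the array, 42 of them KIF and 16 CENP. Each was measured in MDA-MB-231, an established human breast cancer cell line of the triple-negative, mesenchymal kind, on 2 Affymetrix arrays. In the compound 1 group the cells were given compound 1, a small molecule known here only by that name, 24 hours ahead of hypoxia, which lasted 5 days with oxygen under 1%. In the miR-544 antagomir group the cells were given an oligonucleotide directed against miR-544, with the same timing and the same hypoxia. The design text speaks of 3 samples and of pooling before hybridisation, and each treatment has 1 array. Untreated and normoxic cells are not analysed here, and hypoxia is shared by both groups.

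The comparison asks how far the agents differ in these genes. Since each agent has a single array, no spread between replicates and no test can be given, and treatment, pool and hybridisation cannot be told apart. In RNA pooled from whole cultures, fewer cells that express a gene and less of its RNA per cell cannot be told apart either. Values are log2 levels, and each difference is the compound 1 array minus the antagomir array, so that a negative difference means a lower level on the compound 1 array. Levels of different genes come from different probes, and they are set against each other only for the entry level and to sort genes into quintiles of level. A gene counted as measured when the higher of its 2 values reached 5.60, the median of all cluster means, and 53 of the 58 genes did, beside 9584 protein-coding genes in all. The line's markers VIM, CD44, AXL and MSN were measured on both arrays with differences between -0.13 and -0.011, and ESR1 and PGR, which this line lacks, were under the entry level. EPCAM and KRT8, epithelial genes counted as low in this line, were nevertheless measured, at 7.05 and 7.81 with compound 1 and 6.91 and 7.80 with the antagomir. ERBB2 and CDH1 are not named on the array. Of the markers of other cells, PECAM1 and DCN were under the entry level and the other 5 are not named on the array.

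In a dividing cell, mitotic kinesins push spindle poles apart, move and align chromosomes, shorten microtubule ends and complete cytokinesis. Transport kinesins carry vesicles, organelles and ciliary cargo in cells at any stage. CENP-A, a histone H3 variant, marks the centromere, and a constitutive network of CENP subunits sits on it and recruits the kinetochore before chromosomes separate. Many mitotic genes are transcribed late in the cell cycle under control of a short promoter element called the CHR, often found a little downstream of CCAAT boxes bound by NF-Y.

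The microRNA that the antagomir is named for is printed first, because it is the only sequence the labels point to. The mature sequence of hsa-miR-544a, from RefSeq on GRCh38.p14 at chr14:101048712-101048733 on the plus strand, has its seed, bases 2 to 8, in capitals. The labels write only miR-544, so the choice of this family member is not theirs.
hsa-miR-544a: aUUCUGCAuuuuuagcaaguuc

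Promoter sequence was not used to choose the members, and the classes differ in it. RefSeq promoters on GRCh38.p14, 250 bases before to 50 after the start, were found for 47 of the 58 members, and each gene's first listed promoter was searched on both strands for the CHR letters TTTGAA or TTCGAA. They were present in 11 of 14 mitotic kinesin promoters (78.6%), 5 of 13 CENP promoters (38.5%), 1 of 12 transport kinesin promoters (8.33%) and 1 of 8 promoters of other kinesins (12.5%). Among 9707 promoters of protein-coding genes on the array the share was 12.8%. The CCAAT letters were in 11 of 14 mitotic kinesin promoters, 8 of 13 CENP promoters, 3 of 12 transport kinesin promoters and 36.2% of all promoters. Both motifs stood together in 10 of the 14 mitotic kinesin promoters and in 5.39% of all. An E2F form (TTTCCCGC, TTTCGCGC, TTTGCCGC or TTTGGCGC) was found in 1 of 14 mitotic kinesin promoters, 2 of 13 CENP promoters, 0 of 12 transport kinesin promoters and 4.67% of all. In no member promoter did the letters of these motifs overlap.

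**Figure D1:**
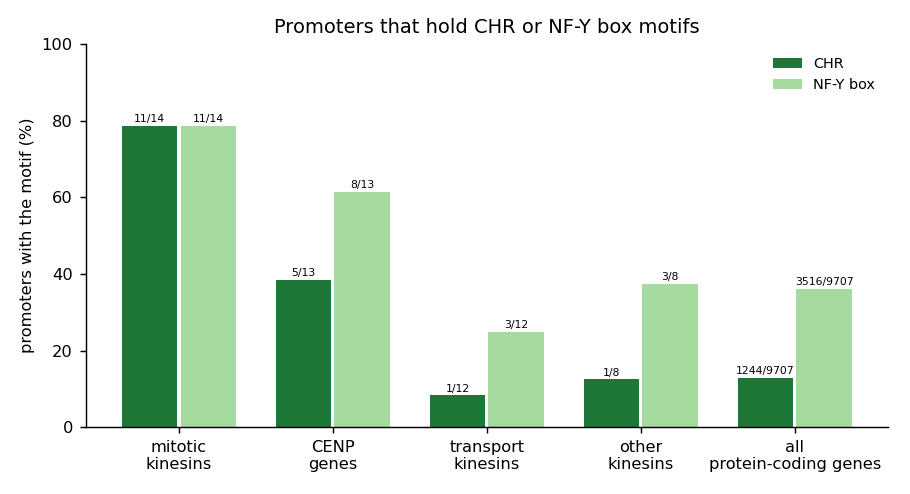
Share of promoters in percent that hold the CHR letters (dark bars) or the CCAAT letters of an NF-Y box (light bars), with the count over the number of promoters above each bar. The mitotic kinesins stand at 78.6% for both motifs, against 12.8% and 36.2% of all protein-coding promoters.

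The windows below, 100 bases before to 20 bases after the start, show where these letters lie, with CHR and CCAAT letters on either strand in capitals. The first 6 are mitotic kinesins in which both motifs lie within the window.
KIF11, chr10:92593030-92593149, plus strand: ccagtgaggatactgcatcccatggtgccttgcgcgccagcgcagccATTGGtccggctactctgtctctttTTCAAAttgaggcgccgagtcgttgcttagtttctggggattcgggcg
KIF18A, chr11:28108137-28108256, minus strand: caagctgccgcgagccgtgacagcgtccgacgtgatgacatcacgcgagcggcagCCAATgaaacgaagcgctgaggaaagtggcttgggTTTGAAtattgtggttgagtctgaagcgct
KIF18B, chr17:44947754-44947873, minus strand: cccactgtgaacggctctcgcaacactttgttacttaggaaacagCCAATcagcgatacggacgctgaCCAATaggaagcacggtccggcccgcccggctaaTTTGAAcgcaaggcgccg
KIF14, chr1:200620732-200620851, minus strand: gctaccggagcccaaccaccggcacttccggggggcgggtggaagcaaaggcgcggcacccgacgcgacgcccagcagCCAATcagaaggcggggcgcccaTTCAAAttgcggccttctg
KIF23, chr15:69414249-69414368, plus strand: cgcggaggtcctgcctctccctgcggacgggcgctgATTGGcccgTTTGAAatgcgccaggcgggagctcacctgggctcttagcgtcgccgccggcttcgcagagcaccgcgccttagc
KIFC1, chr6:33391723-33391842, plus strand: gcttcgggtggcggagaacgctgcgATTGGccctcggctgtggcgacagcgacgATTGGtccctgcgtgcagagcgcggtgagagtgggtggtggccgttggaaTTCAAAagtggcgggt

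In KIF11 the CHR letters begin at base -28 and the CCAAT letters at -53, counted from the start as base 1, in KIF18A at -10 and -45, and in KIF23 at -55 and -64. In KIF14, KIF18B and KIFC1 the CHR letters begin at bases 2, 3 and 5, just past the start. In KIF20B, outside this window, they begin at 25 and 31. In all 11 mitotic kinesin promoters that hold the CHR letters these begin from 60 bases before to 40 after the start, a span set after the positions were seen, and 3.68% of all promoters hold them there. The transport kinesin KIF5B has them at -140.

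Further windows are shown as contrasts. CENPA holds the CHR letters near its start and its CCAAT letters farther up, at -130 and -205. KIF4A, with nearly equal levels on both arrays, holds both motifs. KIF2C, with a lower level on the compound 1 array, holds neither in the letters searched for, and other forms of the CHR were not searched. KIF1C and KIF3B are transport kinesins, of which KIF3B has only the CCAAT letters.
CENPA, chr2:26785956-26786075, plus strand: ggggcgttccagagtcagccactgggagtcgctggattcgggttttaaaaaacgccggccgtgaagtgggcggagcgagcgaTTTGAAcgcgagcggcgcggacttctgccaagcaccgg
KIF4A, chrX:70290004-70290123, plus strand: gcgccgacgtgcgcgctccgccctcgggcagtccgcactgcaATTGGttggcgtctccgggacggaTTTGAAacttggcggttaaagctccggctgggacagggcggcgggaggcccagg
KIF2C, chr1:44739737-44739856, plus strand: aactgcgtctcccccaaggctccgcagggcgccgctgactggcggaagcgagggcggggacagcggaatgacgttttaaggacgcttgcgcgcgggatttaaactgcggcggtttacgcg
KIF1C, chr17:4997850-4997969, plus strand: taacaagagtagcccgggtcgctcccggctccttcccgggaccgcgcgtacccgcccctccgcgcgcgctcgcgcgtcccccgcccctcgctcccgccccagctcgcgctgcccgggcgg
KIF3B, chr20:32277551-32277670, plus strand: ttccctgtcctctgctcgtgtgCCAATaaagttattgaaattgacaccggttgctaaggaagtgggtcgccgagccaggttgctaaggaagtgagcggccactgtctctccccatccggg

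Of the 53 measured members 36 were lower on the compound 1 array, 15 higher and 2 equal. All 14 mitotic kinesins were measured, and all 14 were lower on the compound 1 array, or 13 after each of the 3 other scalings, which turned KIF4A. Of all measured protein-coding genes 58.9% were lower and 40.0% higher. The share lower was 57.5% after centring on array medians, 49.4% after quantile normalization and 51.3% after cyclic loess. The median difference of the mitotic kinesins was -0.26, from -0.42 to -0.0038, beside -0.041 for all measured protein-coding genes. Past 1.2-fold, a threshold used only to describe size, 7 of the 14 were lower and 0 higher, where 9.12% of all measured genes were lower past it and 5.23% higher. Quantile normalization and cyclic loess each left 4 of the 14 lower past it, and 9 of all members in place of 12. Of all 9584 measured genes, 607 and 679 were then lower past it, in place of 874.

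**Figure D2:**
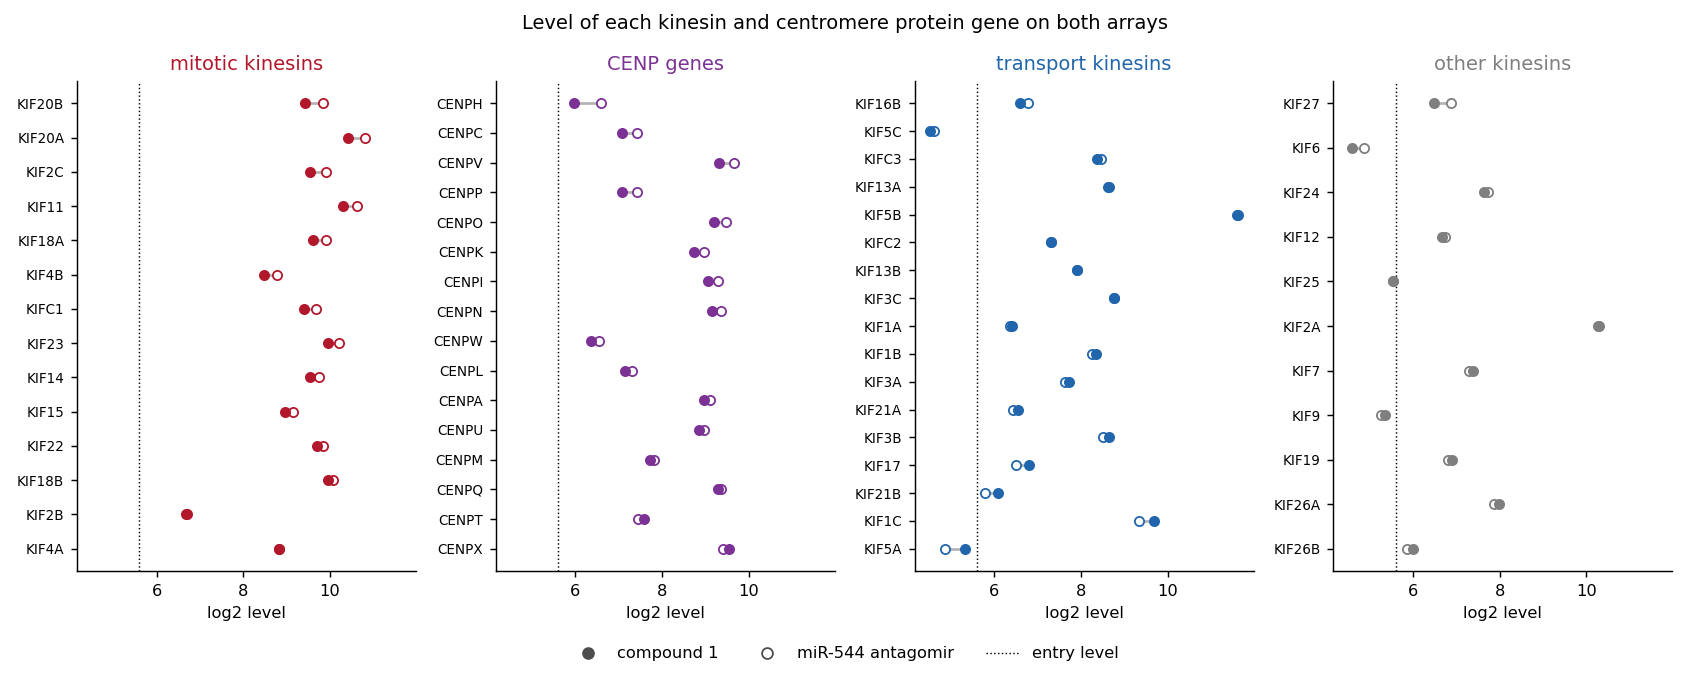
Log2 level of each of the 58 genes on the compound 1 array (filled) and on the miR-544 antagomir array (open), in 4 classes, with the lowest difference at the top of each panel and the entry level of 5.60 as a dotted line. Filled points lie left of open ones for 14 of 14 mitotic kinesins, where the points of KIF2B and of KIF4A nearly coincide, and right of them for 8 of 15 measured transport kinesins.

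The kinesin-6 motors, which bundle the central spindle and act in cytokinesis, included the pair with the lowest differences of the class, KIF20B and KIF20A. KIF20B had a level of 9.41 with compound 1 and 9.83 with the antagomir, a difference of -0.42 or 1.34-fold. KIF20A, which brings the chromosomal passenger complex to the central spindle, was at 10.42 with compound 1 and 10.80 with the antagomir (-0.38). KIF23, the motor subunit of centralspindlin, was at 9.96 with compound 1 and 10.21 with the antagomir (-0.25). All 3 measured members of this subfamily were lower on the compound 1 array. In the highest quintile of genes by level, where these lie, only 0.782% of measured genes had a lower difference than KIF20B and 0.991% a lower one than KIF20A.

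Motors that build the bipolar spindle were lower too. KIF11, the kinesin-5 motor that pushes the poles apart, had 10.29 with compound 1 and 10.63 with the antagomir, a difference of -0.34. KIF15, the kinesin-12 motor that can take over part of its task, was at 8.96 with compound 1 and 9.15 with the antagomir (-0.19). The minus-end motor KIFC1, which focuses spindle poles, was at 9.41 with compound 1 and 9.68 with the antagomir (-0.27). Of its 4 clusters, 3 held exactly these values and the fourth had 6.24 with compound 1 and 6.26 with the antagomir.

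Kinesins that act at chromosomes and microtubule ends followed. KIF2C, which takes apart microtubule ends at the centromere, was at 9.54 with compound 1 and 9.90 with the antagomir (-0.36). KIF18A, which damps chromosome movement at the metaphase plate, was at 9.60 with compound 1 and 9.92 with the antagomir (-0.31). Its relative KIF18B had 9.94 with compound 1 and 10.06 with the antagomir (-0.12). The chromosome arm motor KIF22 had a similar difference of -0.13, at 9.70 with compound 1 and 9.83 with the antagomir. KIF14, a cytokinesis motor, was at 9.54 with compound 1 and 9.74 with the antagomir (-0.20). These 5 genes were all lower on the compound 1 array, and KIF22 and KIF18B had differences that 31.1% and 36.1% of genes in the highest level quintile undercut.

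KIF4A and KIF2B had nearly equal values on both arrays. KIF4A, a chromosome-bound motor that also shortens midzone microtubules, was at 8.83 on both arrays (-0.0038). Its intronless copy KIF4B, so close in sequence that its probes may read KIF4A as well, was at 8.48 with compound 1 and 8.77 with the antagomir (-0.29), so the pair disagrees and both values are uncertain. KIF2B had 6.69 with compound 1 and 6.70 with the antagomir (-0.0099). Without KIF4B, an alternative chosen after seeing the data, the class median was -0.25.

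**Figure D3:**
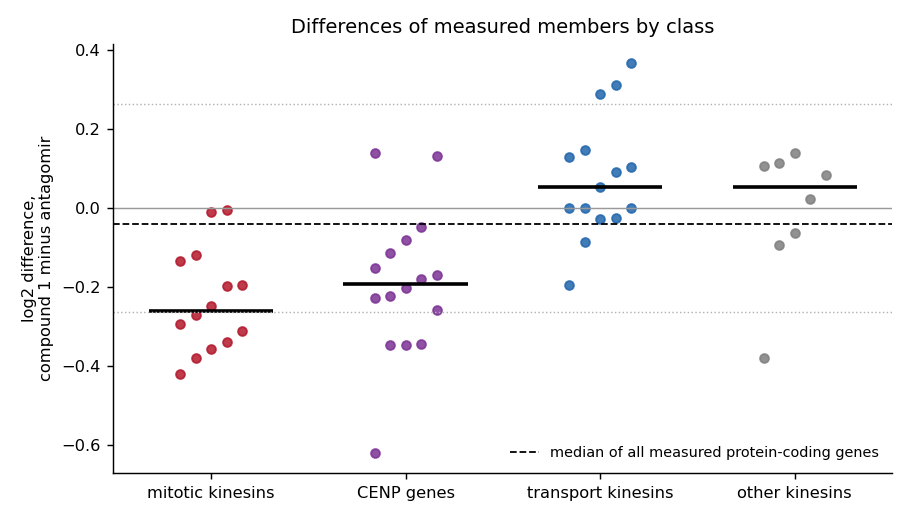
Log2 difference, compound 1 minus antagomir, of each measured gene by class, with the class median as a bar, the median of all 9584 measured protein-coding genes (-0.041) dashed and 1.2-fold dotted. The mitotic kinesins (median -0.26) and CENP genes (-0.19) lie mostly below the dashed line, and the transport kinesins (0.053) and other kinesins (0.054) mostly above it.

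The centromere protein genes were lower on the compound 1 array in 14 of 16 cases, all 16 being measured, with a median difference of -0.19, where 58.9% of all measured genes were lower. After quantile normalization and after cyclic loess 13 were lower, since CENPQ turned, where 49.4% and 51.3% of all measured genes were lower. Past 1.2-fold, 4 of the 16 were lower and 0 higher, beside 9.12% and 5.23% of all measured genes. CENPB, CENPE, CENPF, CENPJ and CENPS are not named on the array and are not analysed here, so the corona motor CENP-E and its partner CENP-F are missing from this account.

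At the base of the centromere, CENPA, the histone variant itself, was at 8.96 with compound 1 and 9.11 with the antagomir (-0.15). CENPC, which binds the CENP-A nucleosome and links it to the outer kinetochore, was at 7.08 with compound 1 and 7.42 with the antagomir (-0.35). CENPV, which lies outside the network, had 9.31 with compound 1 and 9.66 with the antagomir (-0.35). Only 1.88% of genes in its level quintile had a lower difference than CENPV.

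The network subunits outside the histone-fold group were all lower, apart from CENPQ after quantile normalization and cyclic loess. CENPH had the lowest difference of the measured members, at 5.98 with compound 1 and 6.60 with the antagomir, -0.62 or 1.54-fold. Both its values lie near the entry level, in the lowest quintile, where the spread between genes is widest, and 0.574% of genes there had a lower difference. Its complex partners CENPI and CENPK were at 9.06 and 8.74 with compound 1 and 9.28 and 8.97 with the antagomir (-0.22 and -0.23). The fourth partner, CENPM, was at 7.73 with compound 1 and 7.81 with the antagomir (-0.081).

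CENPL and CENPN, which act as a pair and of which CENP-N touches the CENP-A nucleosome, had 7.14 and 9.16 with compound 1 and 7.31 and 9.36 with the antagomir (-0.17 and -0.20). In the group of CENPO, CENPP, CENPQ and CENPU the differences were wider apart than in this pair. CENPP was at 7.07 with compound 1 and 7.41 with the antagomir (-0.34), and CENPO at 9.21 with compound 1 and 9.47 with the antagomir (-0.26). CENPU, which docks a mitotic kinase, was at 8.86 with compound 1 and 8.97 with the antagomir (-0.11), and CENPQ at 9.30 with compound 1 and 9.35 with the antagomir (-0.049).

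The histone-fold subunits were the exception within the network. CENPT, which forms a direct bridge to the outer kinetochore, was higher, at 7.59 with compound 1 and 7.45 with the antagomir (0.13). CENPX, which also serves in DNA crosslink repair, was higher too, at 9.54 with compound 1 and 9.40 with the antagomir (0.14), and 96.2% of genes of its level quintile had a lower difference. CENPW, the direct partner of CENP-T, was lower, at 6.36 with compound 1 and 6.54 with the antagomir (-0.18). The directions of these 3 genes held under all 3 scalings.

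Transport kinesins had a different pattern. Of 17 on the array 15 were measured, of which 5 were lower, 8 higher and 2 held the same value on both arrays, with a median difference of 0.053, where 58.9% of all measured genes were lower and 40.0% higher. After quantile normalization or cyclic loess 2 were lower and 13 higher, where 49.4% and 51.3% of all measured genes were lower. Past 1.2-fold, 0 of the 15 were lower and 3 higher, beside 9.12% and 5.23% of all measured genes. The mitotic median minus the transport median was -0.31, a difference between 2 sets of genes on the same pair of arrays and not between replicates, and it lay between -0.35 and -0.25 under all alternatives run.

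The kinesin-3 motor KIF1C, a carrier of vesicles, was the highest of the measured members by difference, at 9.70 with compound 1 and 9.33 with the antagomir, 0.37 or 1.29-fold. In the highest level quintile 99.9% of measured genes had a lower difference. KIF21B, a kinesin-4 motor studied mainly in neurons, was at 6.10 with compound 1 and 5.78 with the antagomir (0.31), and KIF17, a kinesin-2 motor of dendrites and cilia, at 6.79 with compound 1 and 6.50 with the antagomir (0.29). Both lie in the 2 lowest quintiles of level, where single genes spread most, and 1 member was higher past 1.2-fold, in place of 3, under a stricter entry at the 75th percentile.

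Among the subunits of the heterotrimeric kinesin-2 of cilia, KIF3A had 7.73 with compound 1 and 7.62 with the antagomir (0.10), and KIF3B had 8.66 with compound 1 and 8.51 with the antagomir (0.15). KIF5B, the conventional kinesin heavy chain of most cells, was at 11.61 with compound 1 and 11.63 with the antagomir (-0.024), a sign that turned after quantile normalization and cyclic loess. KIF3C and KIF13B held exactly equal values on both arrays, 8.77 and 7.91, as did 99 of all measured protein-coding genes, for a reason not given in the sources used here. KIF1B was higher in both its clusters, by 0.092 and 0.19. KIF16B, a motor of early endosomes, was the lowest transport kinesin, at 6.60 with compound 1 and 6.79 with the antagomir (-0.19). The rest, KIF1A, KIF13A, KIF21A, KIFC2 and KIFC3, had differences between -0.086 and 0.13. KIF5A and KIF5C did not reach the entry level, having 5.31 and 4.52 with compound 1 and 4.87 and 4.61 with the antagomir.

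Of the 11 other kinesins 8 were measured, 3 lower and 5 higher, with a median of 0.054. Of all measured genes 58.9% were lower and 40.0% higher. All of the 8 but KIF2A lie in level quintiles 1, 2 and 3, counted from the lowest. In these quintiles 38.3%, 50.1% and 63.2% of measured genes were lower. KIF27, a relative of KIF7 known from motile cilia in mice, was the lowest, at 6.49 with compound 1 and 6.87 with the antagomir (-0.38). Its other clusters, under the entry level on both arrays, had differences of -0.071 and 1.15, so the clusters disagree in direction. KIF2A, a microtubule depolymerase of spindle poles and neurons assigned to neither class, was at 10.28 with compound 1 and 10.26 with the antagomir (0.024). KIF24 of the centriole and KIF12 were at -0.092 and -0.063. The Hedgehog regulator KIF7, the ciliary KIF19 and the atypical KIF26A and KIF26B were at 0.084 to 0.14. KIF6, KIF9 and KIF25 did not reach the entry level.

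Set out by subfamily, which was decided after the differences had been seen, the split between classes ran through some families of related motors and not through others. In the kinesin-14 family KIFC1 was at -0.27, KIFC3 at -0.086 and KIFC2 at -0.0004. In the kinesin-8 family KIF18A and KIF18B were at -0.31 and -0.12 and KIF19 at 0.11. In the kinesin-12 family KIF15 was at -0.19 and KIF12 at -0.063. The other families that hold mitotic and other members ran against this order in part. In the kinesin-3 family the mitotic KIF14 (-0.20) and the endosomal KIF16B (-0.19) had nearly the same difference. In the kinesin-4 family KIF27, which is not mitotic, was at -0.38 in its only cluster that reached the entry level. That was below the mitotic KIF4B (-0.29) and KIF4A (-0.0038), while KIF7, KIF21A and KIF21B were higher by 0.084, 0.13 and 0.31. In the kinesin-13 family the mitotic KIF2C was at -0.36 and KIF2A at 0.024, but the mitotic KIF2B was at -0.0099 and KIF24, which is not mitotic, at -0.092.

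**Figure D4:**
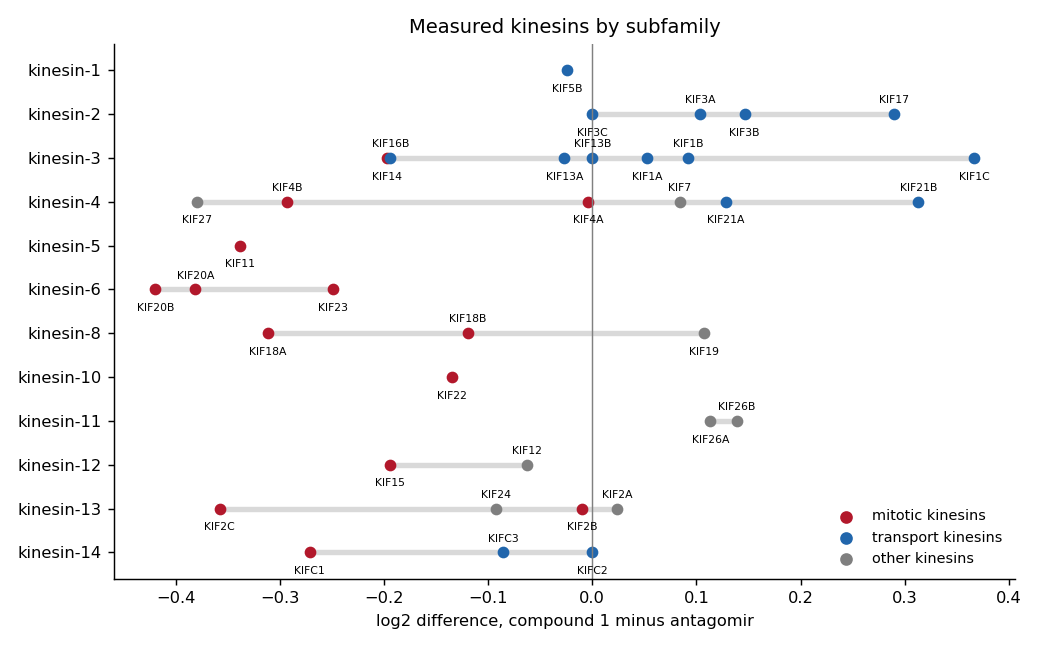
Log2 difference, compound 1 minus antagomir, of each of the 37 measured kinesins, in rows by subfamily and coloured by class. Mitotic members (red) lie left of their relatives in the kinesin-8, kinesin-12 and kinesin-14 rows, while KIF4A and KIF2B lie at 0 and KIF27 lies left of both KIF4 genes.

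Level matters for reading these counts. Over all measured protein-coding genes the share lower on the compound 1 array climbed with level, being 38.3% in the lowest quintile and 74.8% in the highest, and the median difference ran from 0.058 to -0.079. Of the 14 mitotic kinesins 11 lie in the highest quintile, as do 7 of 16 CENP genes, 2 of 15 measured transport kinesins and 1 of 8 other kinesins. In the upper 2 quintiles together, a restriction added after seeing the data, 71.5% of 3834 measured genes were lower, with a median of -0.076. There, 13 of 13 mitotic kinesins were lower (median -0.27), 8 of 9 CENP genes (-0.20) and 3 of 7 transport kinesins (0.00). Cyclic loess, which removes a trend with level, left the medians at -0.19 for mitotic kinesins, -0.15 for CENP genes and 0.067 for transport kinesins, with -0.0054 for all genes.

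**Figure D5:**
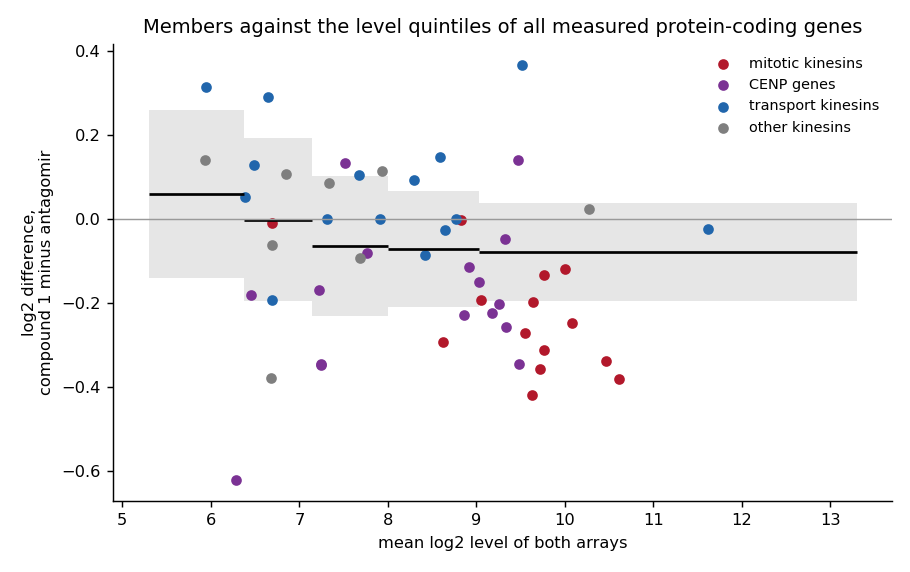
Log2 difference, compound 1 minus antagomir, against the mean log2 level of both arrays for the 53 measured members, over the median (line) and 1 robust SD (grey) of all measured protein-coding genes in each quintile of level. Most mitotic kinesins lie below the grey band of the highest quintile, where the median is -0.079, and KIF1C lies above it.

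Genes outside the KIF and CENP families that hold the CHR letters in the same span were examined in the same way. Only KIF and CENP members were left out, so these genes can include partner genes described in the next paragraphs. The 243 measured ones had a median difference of -0.10, with 70.4% lower and 21.0% lower past 1.2-fold. The 7583 measured genes with a promoter but without these letters there had -0.046, with 60.1% and 8.82%. In the upper 2 quintiles of level, 123 genes with the letters had -0.12 (82.1% lower) and 3146 without had -0.073 (71.2%). Genes with both CHR and CCAAT letters there, 64 in number, had -0.18.

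Most measured partners of the mitotic kinesins and of the CENP network were lower too, and their counts stand beside 58.9% lower among all measured genes and 71.5% in the upper 2 quintiles of level. Of 13 genes of the outer kinetochore (KMN and SKA complexes) 6 were measured, and 6 were lower, with a median of -0.25. NDC80, which grips the microtubule, was at 9.54 with compound 1 and 9.89 with the antagomir (-0.35). SKA3 was at -0.33, while SKA2 and ZWINT were the least different at -0.20 and -0.10. Of 11 spindle checkpoint genes 9 were measured and 9 were lower (8 after quantile normalization, which turned MAD1L1), with a median of -0.26. The checkpoint kinase TTK (-0.46) and MAD2L1 (-0.33) were lowest and BUB3 (-0.20) and MAD1L1 (-0.042) least different.

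The chromosomal passenger and shugoshin genes were lower in 6 of 6 cases, with a median of -0.24. The cohesin protectors SGO1 and SGO2 were at -0.36 and -0.29, the scaffold INCENP at -0.18 and BIRC5 at -0.084. Of 17 spindle and midzone partners 11 were measured and 11 were lower, with a median of -0.27. NUSAP1 and HMMR were lowest at -0.34 and -0.33, and NUMA1 and CKAP5 least different at -0.18 and -0.15. For the deposition of CENP-A, 5 of 7 genes were measured and 4 were lower, with a median of -0.22. HJURP, the CENP-A chaperone, was at 10.08 with compound 1 and 10.56 with the antagomir (-0.48). OIP5 was at -0.49, RBBP4 at -0.16, and MIS18A was higher by 0.041.

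Light chains and cargo adaptors of the transport kinesins showed no common direction, while most measured genes of dynein and dynactin were lower. Of 16 light chains and cargo adaptors 12 were measured, 6 lower and 6 higher, beside 58.9% and 40.0% of all measured genes. Their median of 0.0049 turned to -0.066 under the stricter entry at the 75th percentile. KIFBP, a kinesin-binding protein, was at -0.16 and the mitochondrial adaptor subunit RHOT1 at -0.13, and KLC4 and MAPK8IP2 were higher by 0.19 and 0.26. Of 24 genes of cytoplasmic dynein and dynactin, the motor that runs the other way, 11 were measured and 9 were lower. Quantile normalization left 7 lower and cyclic loess 8. Among all measured genes the shares lower were 58.9%, 49.4% and 51.3%, in the same order. The dynein and dynactin median was -0.11, or -0.040 with quantile normalization and -0.056 with cyclic loess. The medians of all measured genes were -0.041, 0.0020 and -0.0054. DCTN3 and BICD1 were lowest at -0.32 and -0.20, and NDEL1 and DCTN5 were at 0.024 and 0.026. Of 15 tubulin genes looked for, 0 are named on the array, and they are not analysed here.

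The 14 mitotic kinesin genes lie on 10 chromosomes and the 16 CENP genes on 10. Median gene length was 31.0 kb for mitotic kinesins, 27.4 kb for CENP genes, 57.4 kb for transport kinesins and 54.8 kb for other kinesins, in RefSeq on GRCh38.p14.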

How the data were processed

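The deposited table holds 1 log2 value per transcript cluster and array for 53617 clusters, with array medians of 5.62 (compound 1) and 5.59 (antagomir). Per the labels, 5 µg of total RNA gave the biotinylated cRNA, and the analysis was at gene level. The log base (taken as 2), background correction and normalization used by the authors are not stated in those labels. The number of arrays limits the precision. The probe table names 1 gene for 16098 clusters, several for 0 and none for 37519, and RefSeq (GRCh38.p14) held all 16098 identifiers. The platform annotation can be old, and unlisted genes are not analysed here.

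A cluster entered when its higher value reached the 50th percentile of mean levels (5.60), and of a gene's entering clusters the one with the highest mean was used. Without replicates, counts and medians are set beside those of all measured protein-coding genes. Every member is named, with the 2 lowest and 2 highest genes of each partner list. Members, classes and lists were chosen with earlier results of these data known. The summaries were tested on simulated data with known shifts. The trend with level was removed from these data, so its effect on the summaries was not tested. Alternatives changed scaling, entry level, cluster choice, classes, fold and motif search. Analyses used Python 3.11.15, numpy 2.4.6, pandas 2.3.3, matplotlib 3.10.9, R 4.3.3 and limma 3.58.1 (cyclic loess).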

Additional observations from a re-analysis of the deposited data

How the results depend on the processing

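The 4 class medians kept their sign under the 3 other scalings. After quantile normalization and cyclic loess the mitotic kinesin median was -0.186 and -0.187, and the CENP median -0.146 and -0.149; the cause was not tested. The transport kinesin median was 0.0000 both under entry at the 75th percentile and in the upper 2 quintiles of level, where fewer genes are measured. In these settings 1 member was higher past 1.2-fold, beside 42 of 3834 measured genes in the upper 2 quintiles. At 1.1-fold 23 of the 53 measured members were lower and 6 higher, and at 1.5-fold 1 and 0. No share of all measured genes is given for these folds or for entry at the 75th percentile. Those counts therefore cannot be set against one. The median of light chains and adaptors turned to -0.066 under entry at the 75th percentile and -0.080 in the upper 2 quintiles. On the gene's own strand alone 7 of 14 mitotic kinesin promoters held the CHR letters, beside 7.77% of all promoters. Of the 53 measured members 5 turned sign in any scaling (KIF4A, KIFC2, KIF13A, KIF5B and CENPQ), each with a difference under 0.05 in size. The planned move of CENPE to the mitotic kinesins was not run, because the gene is not named on the array. No paired analysis was possible because neither agent has a second array. The upper quintiles, the omission of KIF4B and the search of any promoter were chosen after seeing the data.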
